A study of Mus musculus with 26 samples.

Results

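Of the 26 mouse inner cell masses (ICMs) in the series, 13 bear on the effect of added FGF4, 8 cultured with FGF4 and 5 with the DMSO vehicle, chosen by their treatment labels. FGF4 is a growth factor that epiblast cells secrete, and the ICM is the group of inner cells of the blastocyst. Embryos of the outbred CD-1 mouse strain came from natural matings and were collected as morulae (E2.75). They grew for 24 h in KSOM medium with DMSO alone or with FGF4 and heparin at 1 µg/ml. Neither group received LY, the PI3K inhibitor LY294002, which another 13 ICMs received at 10 µM with FGF4 (6 ICMs) or without it (7 ICMs). The zona pellucida was taken off and the outer cells were killed by immunosurgery before the ICM was collected. Each library held the polyadenylated RNA of 1 ICM and so of 1 embryo. Embryos from 5 litters had been mixed before treatment, so the litter of each is unknown. FGF4 and heparin were given together, and no group received heparin alone.

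The ICM of the blastocyst gives rise to the epiblast, which forms the fetus, and to the primitive endoderm, which forms the lining of the yolk sacs. FGF4 binds FGF receptors together with heparan sulfate or heparin, and the receptors signal through RAS and the kinase ERK. In this lineage choice FGF4 acts on neighbouring inner cells, where ERK signalling lowers NANOG and favours GATA6, SOX17 and GATA4. Primitive endoderm cells then lay down a basement membrane of laminin, collagen IV and perlecan. The measure is TPM, a gene's share of a library corrected for transcript length and scaled to a fixed total, so that a higher share of 1 gene lowers the shares of the others. In a whole ICM, fewer cells of a type and less RNA per cell cannot be told apart.

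2 promoter sequences are shown, of the pluripotency gene Nanog from the epiblast list and of Spred1, a low-level gene from the ERK feedback list. They are the 250 bases before the RefSeq transcription start on GRCm38.p6, both on the plus strand. The Nanog window is chr6:122707239-122707488, and its capitals mark the composite element of the OCT and SOX factors, searched on both strands as TTTGCAT, any 1 base and ACAATG. That element was found once, 75 bases before the start, and in 1 of 27025 promoter windows of the same length (0.0037%), the one of Nanog. The pattern was set for the Nanog window and fixes every base but 1, so this rarity reflects its spelling. Elements of these factors that are spelled otherwise were not searched for. The Spred1 window is chr2:117120821-117121070, and its capitals mark the core CGGAAG of ETS factors, the family of the ERK-dependent factor ETV4, 17 bases before the start. 3718 of the 27025 windows (13.8%) held that core on either strand. A match describes the letters of the window and is not a measured binding site.
Nanog: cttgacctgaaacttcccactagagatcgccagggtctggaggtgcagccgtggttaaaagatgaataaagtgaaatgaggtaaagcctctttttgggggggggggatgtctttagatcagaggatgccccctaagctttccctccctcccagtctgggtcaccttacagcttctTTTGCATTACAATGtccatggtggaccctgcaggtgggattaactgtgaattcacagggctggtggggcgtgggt
Spred1: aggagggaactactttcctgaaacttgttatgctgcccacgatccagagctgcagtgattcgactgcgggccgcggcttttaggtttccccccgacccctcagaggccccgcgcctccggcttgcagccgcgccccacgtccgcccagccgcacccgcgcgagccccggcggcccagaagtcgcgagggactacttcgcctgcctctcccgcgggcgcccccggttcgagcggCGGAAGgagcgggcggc

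FGF4 replicate 6 stood apart from the other FGF4 libraries. Over the 294 genes called below, its median position was 0.57 on a scale with 0 at the DMSO mean and 1 at the FGF4 mean, while the other 7 FGF4 libraries lay between 0.98 and 1.25. It was the FGF4 library nearest to the DMSO mean for 135 of the 294 genes (45.9%, against an even share of 12.5%). It also held 282 TPM of Cdx2, a trophectoderm factor, where the other FGF4 libraries held at most 54.4 TPM. DMSO replicate 8 held more transcript of several primitive endoderm genes than the other DMSO libraries, among them Gata4 at 29.1 TPM and Serpinh1 at 207 TPM. Libraries listed 10212 to 11367 genes at 1 TPM or more in DMSO and 8315 to 10871 with FGF4, where replicates 2 and 3 were under 9000. FGF4 replicate 1, although labelled as 1 ICM, held both Xist (17 TPM) and the Y-linked transcripts Ddx3y (11.3 TPM) and Eif2s3y (27.9 TPM), which no other of the 13 libraries did at 5 TPM or more. Without it 239 genes were called, 221 of them among the 294. The number of reads is unknown from TPM, and no counting interval was derived. Of 11 marker genes of ovary, blood and other cells outside the embryo, 9 were listed at 0 in all 13 libraries and the sum was at most 1.4 TPM.

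**Figure D1:**
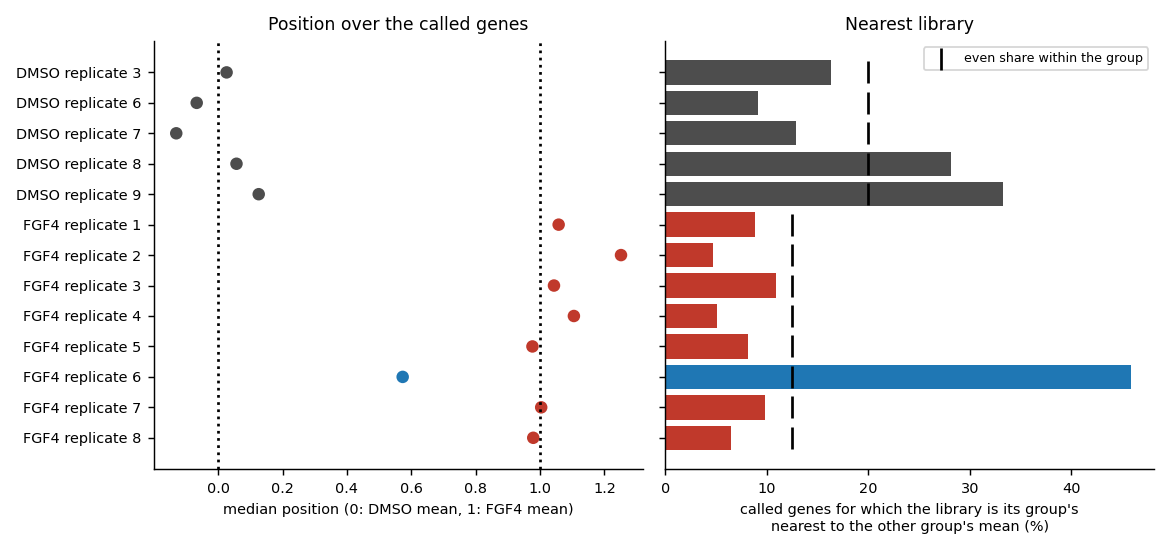
The left panel gives each library's median position over the 294 called genes, with 0 at the DMSO mean and 1 at the FGF4 mean, and the right panel the percentage of those genes for which the library is its group's nearest to the other group's mean. FGF4 replicate 6 (blue) lies at 0.57 and takes 45.9% of the genes. The means include the library itself, and the genes were called with it.

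With FGF4, 5 of 10 tested epiblast genes fell and 0 rose, while 3 of 7 primitive endoderm transcription factors and 5 of 16 basement membrane genes rose and 0 fell. 5 of 26 epithelial junction and trophectoderm transport genes fell beside them, and with a trophectoderm score as a covariate nearly all calls were lost, as given below. Of 12034 genes tested with limma on log2(TPM + 1), 294 passed a Benjamini-Hochberg adjusted p of 0.05 (2.44%). 118 of them were higher with FGF4 (0.981%) and 176 lower (1.46%). The ranges of the groups did not overlap for 160 of the 294, 59 higher and 101 lower. Over all tested genes, the ranges were apart for 136 higher (1.13%) and 196 lower (1.63%). The median log2 fold change of all tested genes was -0.10, and 43.9% were positive. With quantile normalization that median was -0.01 and 46.6% of the calls were higher, against 40.1%. Fold changes below are differences of mean log2(TPM + 1), so those of low genes are understated.

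How many genes passed depended on the libraries, on how many genes they listed and on trophectoderm transcripts. Without FGF4 replicate 6, 432 genes passed, and 286 of the 294 were among them. Without both FGF4 replicate 6 and DMSO replicate 8, an alternative chosen after the data were seen, 338 passed and 241 were shared. The smallest count came without DMSO replicate 7, at 114, and DMSO replicates 3 and 6 gave 177 and 144 when left out. Of 92 named genes that passed, 44 passed again in each of 13 runs that left out 1 library, 16 lost the call in 1 to 3 runs and 32 in 4 or more. Most losses, 47 genes, came without DMSO replicate 7, and 2 genes lost it without FGF4 replicate 6. A score of 2 trophectoderm gene lists, described below, was 4.62 to 5.33 in DMSO, 4.72 in FGF4 replicate 6 and 3.44 to 4.32 in the other FGF4 libraries. With that score as a covariate 4 genes passed, all lower and all among the 294, namely Fgf4, Macroh2a1, Rcc2 and Ybx3. Each library's number of listed genes as a covariate left 181 genes, 90 higher and 91 lower. Of the 294, 155 were among them. The exact permutation test of single genes, over 1287 splits, gave an unadjusted p under 0.05 for all 294 genes and for 2201 of all tested (18.3%). Its smallest possible p is 0.000777, and the smallest adjusted p it gave was 0.0596, so 0 genes passed it.

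The epiblast list had 10 tested genes, of which 5 fell and 0 rose, with a median log2 fold change of -2.16. 9 of the 10 were negative. Nanog, which holds cells in the naive pluripotent state, stood at 195, 186, 198, 160 and 152 TPM in DMSO replicates 3, 6, 7, 8 and 9, the order used for all DMSO values below. With FGF4 its lowest, median and highest values were 0, 8.48 and 176 TPM, the order used for all FGF4 values. 7 FGF4 libraries were at 17.4 TPM or less, and replicate 6, at 176 TPM, lay within the DMSO range. The log2 fold change of Nanog was -4.28 (SE 0.98, limma adjusted p = 0.0156), and -4.89 without replicate 6 (limma adjusted p = 0.00213).

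The embryo's own Fgf4 transcript, the ligand gene, stood at 29.4, 30.2, 59, 39.6 and 80.2 TPM in the controls. It was listed at 0 in 7 FGF4 libraries and at 5.72 TPM in replicate 6, so the groups did not overlap (log2 fold change -5.15, SE 0.51, limma adjusted p = 8.85e-07). The table does not measure the FGF4 protein that was added. Klf2, a factor of naive pluripotency on chromosome 8 (72319033 to 72321656), stood at 133, 109, 180, 112 and 115 TPM in DMSO. With FGF4 it was at 0, 1.34 and 41.2 TPM, the highest again in replicate 6, with no overlap (-5.31, SE 0.92, limma adjusted p = 0.0019). Utf1, a chromatin protein of pluripotent cells, stood at 307, 307, 349, 441 and 456 TPM in DMSO and at 71.1, 158 and 219 TPM with FGF4. Its groups were apart as well, by a smaller ratio than those of Fgf4 and Klf2 (-1.37, limma adjusted p = 0.0143). Prdm14, a repressor that protects naive pluripotency, was low in both groups, at 1.76 to 18.7 TPM in DMSO and at 0 in 7 of the FGF4 libraries (-2.64, limma adjusted p = 0.046, and 0.0519 without replicate 6). When each library was left out in turn, Fgf4, Klf2 and Utf1 passed in all 13 runs, Nanog in all but the one without DMSO replicate 7, and Prdm14 lost its call in 12.

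Other epiblast genes did not pass the test. Sox2, a partner of OCT4, stood at 16.8 to 39.7 TPM in DMSO and at 0, 19.3 and 56.5 TPM with FGF4, with overlap (-1.03, limma adjusted p = 0.582). Tdgf1, the NODAL co-receptor, was lower in every FGF4 library than in every DMSO library, at no more than 83.3 TPM against at least 120 TPM, yet missed the threshold (-3.31, limma adjusted p = 0.0544). Gdf3, a ligand of the same pathway, had a log2 fold change of -1.68 (limma adjusted p = 0.136).

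Among 20 naive pluripotency genes that both kinds of inner cell carry, 3 fell and 1 rose (median -0.67). Nr5a2, a nuclear receptor, stood at 174, 158, 164, 93.5 and 140 TPM in DMSO and at 5.29, 49.9 and 115 TPM with FGF4. Only replicate 6 reached the DMSO range, and the log2 fold change was -2.03 (SE 0.51, limma adjusted p = 0.0292). Dppa3, a maternal factor that protects DNA methylation marks, had a log2 fold change of -1.04 (limma adjusted p = 0.0127) and Dppa2, a chromatin factor, of -1.10 (limma adjusted p = 0.0357). Klf5, a KLF factor that acts in both trophectoderm and ICM, went the other way. It stood at 63.1, 58, 31.2, 51.4 and 58.2 TPM in DMSO and at 85.8, 105 and 234 TPM with FGF4, with no overlap (1.18, SE 0.26, limma adjusted p = 0.0113). Dppa3 passed whichever library was left out, and the calls of Klf5, Nr5a2 and Dppa2 were lost in 1, 6 and 8 runs. Pou5f1, which encodes OCT4, stood at 1350 to 1698 TPM in DMSO and at 950, 1089 and 1495 TPM with FGF4, and did not pass (-0.47, limma adjusted p = 0.0967, and 0.0443 without replicate 6). Of 6 tested genes of formative pluripotency, 0 passed. Their median was 1.19, and Otx2, a factor of the later epiblast, had the lowest log2 fold change at -2.11.

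Of 7 tested transcription factors of primitive endoderm, 3 rose and 0 fell (median 1.69). Gata4, a late factor of the lineage, stood at 0.88, 5.87, 6.53, 29.1 and 2.33 TPM in DMSO and at 34.1, 128 and 216 TPM with FGF4. Replicate 6 was the lowest FGF4 library, DMSO replicate 8 the highest control, and the groups did not overlap (log2 fold change 4.18, SE 0.80, limma adjusted p = 0.00401). Sox17, which acts beside Gata4, varied more among the controls, at 69, 110, 11.7, 299 and 266 TPM, and stood at 431, 663 and 910 TPM with FGF4. The groups were again apart (2.76, SE 0.73, limma adjusted p = 0.0361). Foxq1, a forkhead factor, was at 0, 0.45, 0, 12.9 and 0 TPM in DMSO and at 9.07, 22.6 and 55.4 TPM with FGF4, where DMSO replicate 8 overlapped the lowest FGF4 library (3.64, SE 0.69, limma adjusted p = 0.00375). Gata4 and Foxq1 passed in all 13 runs that left out 1 library, and Sox17 lost its call in 8.

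Members of the same list that did not pass were also mixed in direction. Gata6, the first factor of the lineage, was already high in the controls, at 294, 233, 210, 218 and 312 TPM, and stood at 199, 311 and 456 TPM with FGF4 (0.29, limma adjusted p = 0.688). Sox7, a relative of Sox17, was listed at 0 in all 5 DMSO libraries and in 3 of 8 FGF4 libraries, with a highest value of 23.6 TPM in replicate 7. Hnf4a, a factor of visceral endoderm, stood at 50.4 to 99.9 TPM in DMSO and at 0, 35.6 and 79.5 TPM with FGF4 (-2.36, limma adjusted p = 0.349).

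**Figure D2:**
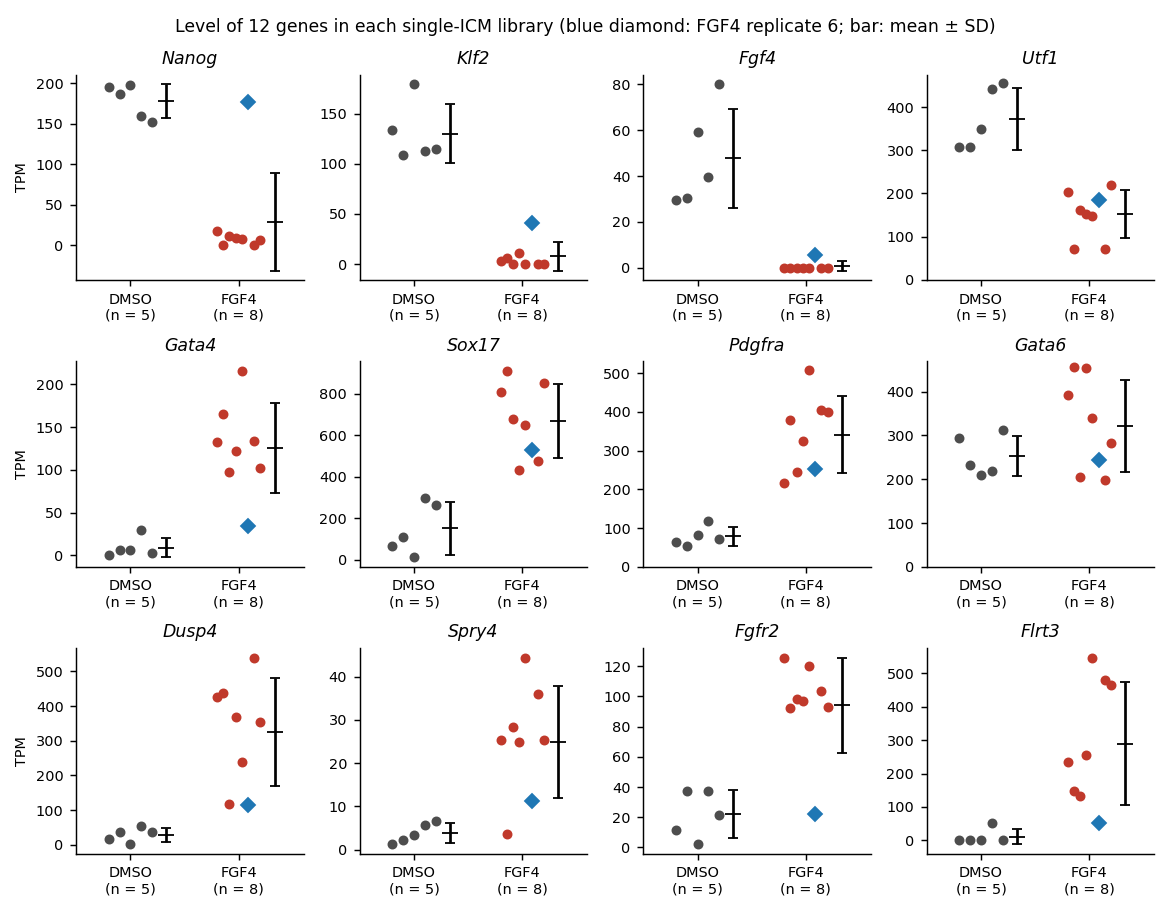
Each panel gives the TPM of 1 gene in the 5 DMSO and 8 FGF4 libraries, 1 point per ICM, with the mean and SD at the side; each panel has its own linear axis and the SD bar may reach below 0. FGF4 replicate 6 (blue diamonds) lies at 176 TPM for Nanog, within the DMSO range, and at 34.1 TPM for Gata4, above it.

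Of 12 tested receptors and other surface or secreted proteins of primitive endoderm, 2 rose, and 11 of 12 had positive log2 fold changes (median 0.83). Fgfr2, an FGF receptor, stood at 11.3, 37.7, 2.07, 37.4 and 21.6 TPM in DMSO and at 21.9, 97.7 and 126 TPM with FGF4. 7 FGF4 libraries were at 92.6 TPM or more, and only replicate 6, at 21.9 TPM, overlapped the controls (2.38, SE 0.63, limma adjusted p = 0.0378). Dkk1, a secreted WNT inhibitor, was at 5.42, 5.6, 0, 4.28 and 2.31 TPM in DMSO and at 3.94, 58.4 and 130 TPM with FGF4 (3.45, SE 0.76, limma adjusted p = 0.0118). FGF4 replicate 3 held the lowest of these. Leaving out 1 library took the call of Fgfr2 in 10 runs and that of Dkk1 in 1, the one without DMSO replicate 7. Pdgfra, the PDGF receptor that marks the lineage, stood at 52.8 to 118 TPM in DMSO and at 216, 352 and 507 TPM with FGF4, with no overlap, but its limma adjusted p was 0.057 (log2 fold change 2.11). Aqp8, a water channel, reached 143 TPM in DMSO replicate 8 and 512 TPM in FGF4 replicate 7, and did not pass (3.83, limma adjusted p = 0.116). The 4 tested secreted proteins of visceral endoderm and yolk sac, the apolipoproteins Apoe, Apoa1 and Apoc2 and the lipid transfer protein Mttp, gave 0 calls and a median of -0.09.

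Matrix genes made up the next group, with 4 of 11 parietal endoderm genes (median 1.66) and 5 of 16 basement membrane genes (median 1.48) higher and 0 lower. These lists share Sparc, Lama1 and Col4a1 among the called genes. Lama1, the laminin alpha chain of the first embryonic basement membranes, stood at 7.38, 0.45, 0, 38.7 and 0.41 TPM in DMSO and at 3.29, 120 and 259 TPM with FGF4. FGF4 replicates 3 and 6 were at 11.4 and 3.29 TPM and overlapped the controls (4.17, SE 1.07, limma adjusted p = 0.031). Lamc1, the gamma chain that pairs with it, stood at 14.9, 17.1, 16.1, 53.4 and 38.6 TPM in DMSO and at 61, 188 and 255 TPM with FGF4. Its groups were apart in all 13 libraries (2.64, SE 0.41, limma adjusted p = 0.000646). Lamb1, the beta chain, had the highest level of the 3 chains in both groups on the TPM scale, with 232 to 633 TPM in DMSO and 123, 1533 and 2389 TPM with FGF4. It did not pass (1.5, limma adjusted p = 0.47), and replicate 6 held the lowest value of all 13 libraries.

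Col4a1, a collagen IV chain, stood at 44.9, 37, 47.3, 78.7 and 68.5 TPM in DMSO and at 129, 302 and 404 TPM with FGF4, with no overlap (2.28, SE 0.45, limma adjusted p = 0.00551). Its partner chain Col4a2 overlapped between groups and did not pass (1.66, limma adjusted p = 0.137). Hspg2, which encodes the core of the heparan sulfate proteoglycan perlecan, was at no more than 2.23 TPM in DMSO and at 0, 21.4 and 59.7 TPM with FGF4 (3.02, limma adjusted p = 0.0247). It was the 1 member called of 20 tested genes for heparan sulfate synthesis and proteoglycans (median 0.04), and FGF4 replicate 6 was listed at 0. Sparc, a collagen-binding matrix protein, stood at 53.7 to 129 TPM in DMSO and at 78.3, 298 and 637 TPM with FGF4 (1.69, limma adjusted p = 0.0329). Of these matrix genes, Lamc1 and Col4a1 passed in all 13 runs that left out 1 library, while Lama1 lost its call in 8, Sparc in 7 and Hspg2 in 3.

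Of 15 genes that fold and export collagen and laminin, 2 rose (median 0.35). Serpinh1, the collagen chaperone HSP47 on chromosome 7 (99345376 to 99353239), stood at 6.89, 11.3, 0, 207 and 30.5 TPM in DMSO. With FGF4 it was at 40.5, 592 and 1090 TPM, and only DMSO replicate 8 lay above the lowest FGF4 libraries (4.57, SE 1.21, limma adjusted p = 0.0378). P4ha1, a collagen prolyl hydroxylase subunit, stood at 53.1 to 80.6 TPM in DMSO and at 90.9, 192 and 262 TPM with FGF4, with no overlap (1.38, limma adjusted p = 0.0297). Among 11 integrins and adhesion receptors, 2 rose (median 0.17). Itga3, a laminin receptor subunit, had a log2 fold change of 2.00 (limma adjusted p = 0.0188). Flrt3, a membrane protein of the FLRT family that can bind FGF receptors, had the largest rise of all named genes. It was listed at 0 in DMSO replicates 3, 6 and 7, at 51.6 TPM in replicate 8 and at 1.2 TPM in replicate 9. With FGF4 it stood at 52.5, 246 and 548 TPM, the lowest in replicate 6 and just above DMSO replicate 8 (6.48, SE 1.26, limma adjusted p = 0.00453). It passed in all 13 runs that left out 1 library, whereas Serpinh1 lost its call in 10, P4ha1 in 8 and Itga3 in 2.

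The genes of FGF signalling itself moved in part. Of 9 tested FGF ligands, receptors and co-receptors, Fgfr2 and Flrt3 rose and Fgf4 fell. Fgfr1, the receptor that most inner cells carry, stood at 59.1 to 125 TPM in DMSO and at 20.1, 63.8 and 128 TPM with FGF4 (-0.48, limma adjusted p = 0.57). Fgfr3 was at no more than 0.75 TPM in DMSO and at 0, 6.71 and 45.1 TPM with FGF4 (2.46, limma adjusted p = 0.103). Of 26 tested RAS and ERK cascade genes, 0 passed, with a median of -0.06.

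Of 19 tested feedback inhibitors of ERK and ETV factors, 4 rose and 0 fell, while the median was 0.07. Dusp4, a phosphatase that acts on ERK in the nucleus, stood at 16.2, 36, 1.03, 52.6 and 36.4 TPM in DMSO and at 113, 362 and 540 TPM with FGF4. Every FGF4 library lay above every control (3.90, SE 0.68, limma adjusted p = 0.00205). Spry4, a Sprouty inhibitor of RAS signalling, stood at 1.24, 2.3, 3.44, 5.78 and 6.6 TPM in DMSO and at 3.57, 25.3 and 44.4 TPM with FGF4, where only replicate 2 overlapped (2.30, SE 0.58, limma adjusted p = 0.0288). Spred1, whose promoter window is printed above, is another inhibitor of RAS signalling and was low in all libraries. It was at 0.16, 0, 0, 0.82 and 1.04 TPM in DMSO and at 1.12, 6.79 and 28.2 TPM with FGF4, with no overlap but a narrow gap (2.56, limma adjusted p = 0.0347). Etv4, an ETS factor, was at 3.95, 1.94, 0, 1.11 and 19.1 TPM in DMSO and at 16.4, 30.2 and 60.5 TPM with FGF4 (3.07, limma adjusted p = 0.0425). Dusp4 passed in all 13 runs that left out 1 library, and the calls of Spry4, Spred1 and Etv4 were lost in 5, 8 and 10.

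Other members of that list did not pass. Dusp6, a cytoplasmic ERK phosphatase, was at 0 to 18.8 TPM in DMSO and at 0, 15 and 23.9 TPM with FGF4 (1.05, limma adjusted p = 0.605). Etv5 stood at 125 to 319 TPM in DMSO and at 41, 119 and 518 TPM with FGF4, the highest in replicate 6 (-0.91, limma adjusted p = 0.499). Dusp14 was lower in every FGF4 library than in every control, at up to 13.7 TPM against at least 23.9 TPM, and its limma adjusted p was 0.055. Of 18 tested immediate early genes, the first transcripts to answer ERK, 0 passed at 24 h (median 0.09), and Egr1 was at 28.9 TPM in the median FGF4 library against 24.8 to 81.5 TPM in DMSO (-0.68, limma adjusted p = 0.68).

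Other signalling lists held 0 to 2 calls each. Of 16 LIF and STAT3 genes, Bcl3, a nuclear co-regulator of NF-kappaB, stood at 14.5, 17.6, 23.6, 11.5 and 14.9 TPM in DMSO and at 0 in each of the 8 FGF4 libraries (limma adjusted p = 0.00102). Myc, a growth factor-responsive transcription factor, stood at 88.3, 29.1, 153, 285 and 175 TPM in DMSO and at 0, 8.93 and 89.8 TPM with FGF4 (-4.19, SE 1.09, limma adjusted p = 0.0347). It was the 1 call among 12 genes of the MYC network (median 0.30), and FGF4 replicate 6 was again the highest. Of 22 genes of Nodal, BMP and TGF-beta signalling, Smad7, an inhibitory SMAD, rose from at most 1.54 TPM to 4.05, 13.7 and 55.6 TPM (3.32, limma adjusted p = 0.0168), with no overlap. Id3, a target of BMP, fell from 56.7, 74.2, 235, 209 and 140 TPM to 0, 26.4 and 59.3 TPM (-2.75, limma adjusted p = 0.0316). Of 19 WNT genes, Dkk1 and the receptor gene Fzd7 rose (Fzd7 2.21, limma adjusted p = 0.0316). Bcl3 passed whichever library was left out, Smad7 lost its call in 1 run, Id3 in 5, Fzd7 in 6 and Myc in 8. 0 of 27 genes of PI3K, AKT, mTOR and FOXO passed (median -0.05), nor did any of 18 Hippo genes (median -0.0049) or 9 genes of retinoid handling (median -0.21).

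**Figure D3:**
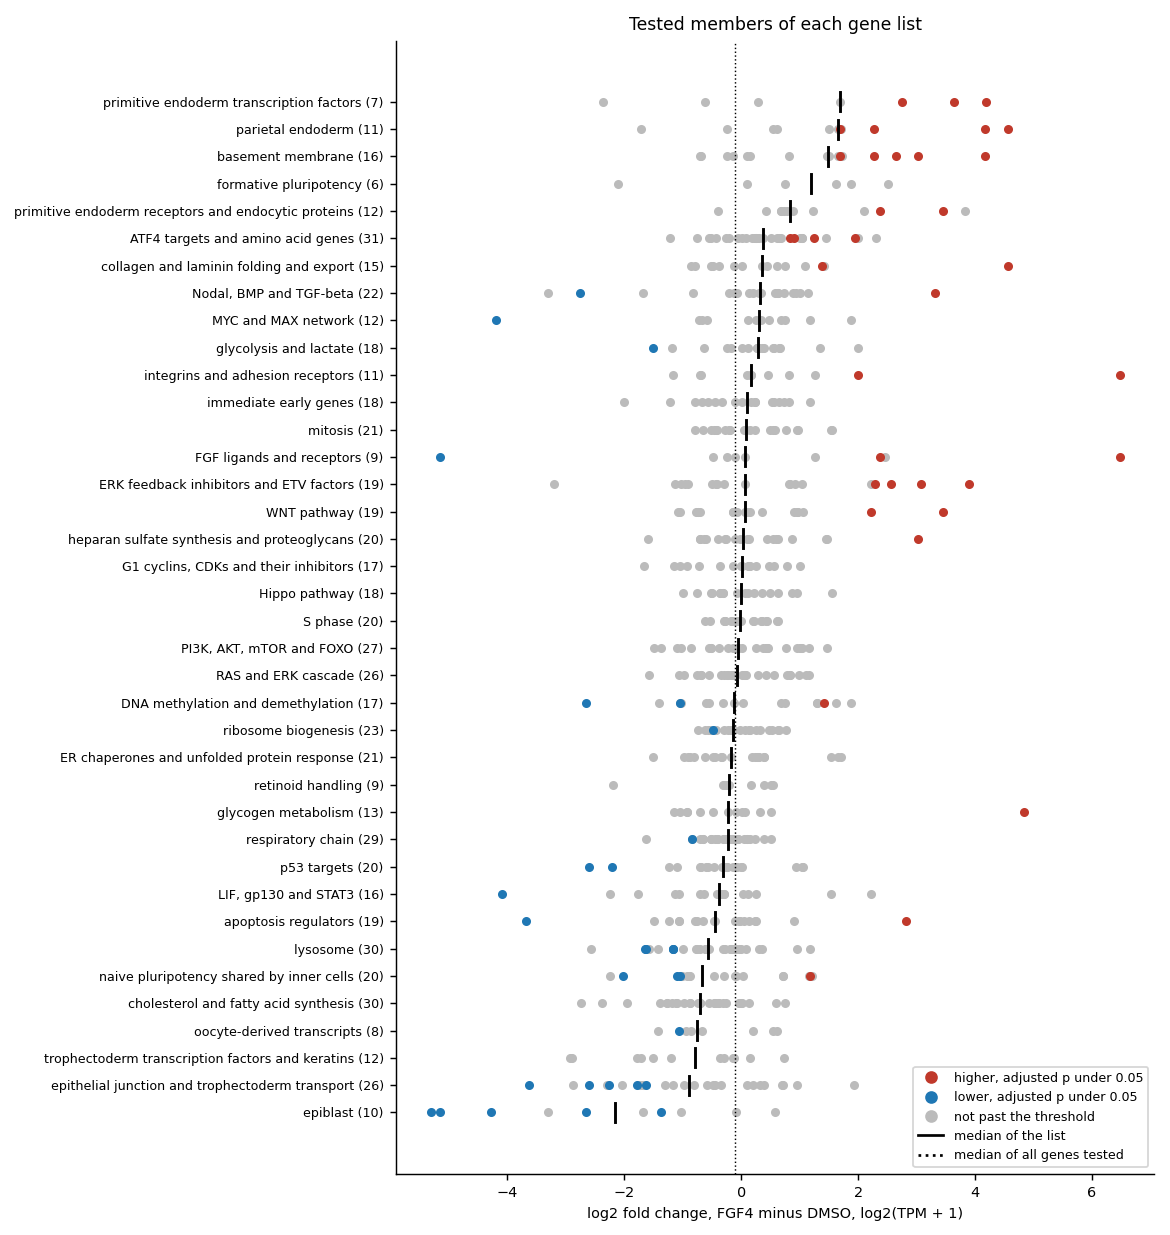
Each row is a gene list with at least 5 tested members (their number in parentheses), and each point the log2 fold change of a member, red if higher and blue if lower at a limma adjusted p under 0.05. The epiblast list has the lowest median at -2.16 and the list of primitive endoderm transcription factors the highest at 1.69, beside -0.10 for all genes (dotted line). Some genes are in more than 1 list.

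The trophectoderm is the outer layer that immunosurgery is meant to remove. Of 26 tested genes of epithelial junctions and trophectoderm transport, 5 fell and 0 rose (median -0.90). Cldn4, a tight junction claudin, stood at 274, 330, 193, 297 and 218 TPM in DMSO and at 14.4, 51.8 and 292 TPM with FGF4. Only replicate 6, at 292 TPM, was within the DMSO range (-2.25, SE 0.57, limma adjusted p = 0.0288). Aqp3, a water channel of the trophectoderm, stood at 101, 192, 140, 47 and 56.3 TPM in DMSO and at 0, 8.24 and 32.8 TPM with FGF4, with no overlap (-3.63, limma adjusted p = 0.0156). Sfn, an epithelial 14-3-3 protein, had a log2 fold change of -1.79 (limma adjusted p = 0.00205), Perp, a desmosome protein, of -2.60 (limma adjusted p = 0.0162) and Ocln, the tight junction protein occludin, of -1.63 (limma adjusted p = 0.048). Sfn passed in all 13 runs that left out 1 library, Aqp3 and Perp lost their calls in 2, Cldn4 in 7 and Ocln in 11.

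Trophectoderm transcription factors and keratins gave 0 calls among 12 tested, with 10 negative and a median of -0.78. Cdx2 stood at 178, 153, 29.1, 16.2 and 41.6 TPM in DMSO and at 0, 5.59 and 282 TPM with FGF4, with overlap (-2.89, limma adjusted p = 0.239). Krt8, a keratin, was at 239 to 430 TPM in DMSO and at 235, 318 and 396 TPM with FGF4 (-0.14, limma adjusted p = 0.891), so this transcript was present in both groups. The summed TPM of the 16 genes of that list was 681 to 1192 in DMSO and 412 to 1096 with FGF4, the highest in replicate 6. That of the 26 junction and transport genes was 2170 to 3171 in DMSO and 1579 to 3009 with FGF4. On the log2(TPM + 1) scale, the mean over the junction list was 4.75 to 5.52 in DMSO and 3.79 to 4.62 with FGF4, so the groups did not overlap.

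With the score of both trophectoderm lists as a covariate, the log2 fold change of Nanog was -1.64 (limma adjusted p = 0.585), that of Gata4 2.52 (limma adjusted p = 0.304) and that of Dusp4 3.39 (limma adjusted p = 0.13). Fgf4 kept -4.85 (limma adjusted p = 0.000638). Because the score and the treatment move together, their parts in these differences cannot be told apart. Of 7 markers of trophoblast giant cells, 4 were at 0 in all 13 libraries, and the 7 summed to 5.58 to 36.5 TPM in DMSO and 0 to 13.7 TPM with FGF4. Of the 2 tested, 0 passed and both were negative (median -1.95). Of 8 tested transcripts that the oocyte leaves behind, 3 were positive and 1 fell, and the list's mean log2(TPM + 1) overlapped between groups, at 2.59 to 3.76 in DMSO and 1.66 to 3.01 with FGF4. The gene that fell was Khdc3, a subunit of the subcortical maternal complex, from 2268, 2385, 2616, 3436 and 2270 TPM to 876, 1141 and 1942 TPM (-1.07, limma adjusted p = 0.0019). The part of these transcripts in the other results was not tested.

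In the metabolic lists, amino acid genes and lysosomal genes held most of the calls. Of 31 tested ATF4 targets and amino acid genes, 4 rose and 0 fell, and 23 were positive (median 0.37). Asns, which makes asparagine, stood at 292, 96.6, 88.1, 305 and 395 TPM in DMSO and at 425, 799 and 1184 TPM with FGF4, with no overlap (1.95, SE 0.53, limma adjusted p = 0.041). The others were the tRNA synthetases Nars (1.25, limma adjusted p = 0.0118), Wars, which overlaps Wdr25 on the other strand (0.90, limma adjusted p = 0.0316), and Eprs (0.84, limma adjusted p = 0.0366). All 3 had groups that did not overlap, but leaving out 1 library took the call of Asns in 10 runs, Eprs in 9, Wars in 6 and Nars in 2. Atf4 itself had a log2 fold change of -0.75 and Ddit3, a stress factor it induces, of -1.22, and neither passed.

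Of 30 tested lysosomal genes 4 fell and 25 were negative (median -0.56). Psap, the precursor of the saposins, stood at 1373, 1607, 1628, 1245 and 1430 TPM in DMSO and at 387, 603 and 1054 TPM with FGF4, with no overlap (-1.17, SE 0.23, limma adjusted p = 0.00451). The protease Ctsd (-1.17, limma adjusted p = 0.00791), the cholesterol carrier Npc2 (-1.64, limma adjusted p = 0.0117) and progranulin, Grn (-1.62, limma adjusted p = 0.0157), fell too. For all 4 genes, replicate 6 was the highest FGF4 library. Psap and Ctsd passed in all 13 runs that left out 1 library, and Npc2 and Grn in 12.

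Of 30 genes of cholesterol and fatty acid synthesis, 26 were negative (median -0.70) and 0 passed. Gpi1, a glycolytic isomerase, fell (-1.50, limma adjusted p = 0.0304) as the 1 call among 18 genes of glycolysis and lactate, where 13 were positive (median 0.29). Stbd1, a glycogen-binding protein, was listed at 0 in 4 DMSO libraries and at 2.66 TPM in replicate 8, and stood at 0, 61.8 and 343 TPM with FGF4 (4.84, limma adjusted p = 0.0219). It was the only call among 13 glycogen genes. Atp5b, the catalytic beta subunit of ATP synthase and the most abundant called gene in DMSO, stood at 4064, 6679, 6860, 6912 and 3471 TPM and at 2362, 2747 and 4461 TPM with FGF4 (-0.84, limma adjusted p = 0.0118). It was the 1 call among 29 respiratory chain genes (median -0.22). Leaving out 1 library took the call of Gpi1 in 8 runs, Stbd1 in 4 and Atp5b in 2.

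Lists of the cell cycle held 0 calls, with medians of 0.01 over 17 G1 genes, -0.03 over 20 S phase genes and 0.09 over 21 mitosis genes. 21 chaperones and genes of the unfolded protein response also gave 0 calls (median -0.17). Among 19 apoptosis regulators, Pmaip1, the BH3-only protein NOXA, rose from 10.7, 29.4, 31.8, 77.4 and 17.1 TPM to 43.5, 205 and 497 TPM (2.82, SE 0.50, limma adjusted p = 0.0022). Bcl2l14, a BCL2 family member, fell from 183, 232, 239, 200 and 181 TPM to 0, 20.6 and 137 TPM, with no overlap (-3.68, limma adjusted p = 0.0388). Of 20 p53 targets, Perp, which is also a junction gene, and Ei24 (-2.20, limma adjusted p = 0.0187) fell. Among 17 genes of DNA methylation and demethylation, Tdg, a glycosylase that removes oxidised methylcytosine, rose (1.42, limma adjusted p = 0.0273), and Dppa3 and Prdm14 fell. Of 23 ribosome biogenesis genes 1 fell, the nucleolar protein gene Npm1, which has close copies in the genome (-0.49, limma adjusted p = 0.0447). Of these genes, Pmaip1 passed whichever library was left out, and the calls of Ei24, Tdg, Bcl2l14 and Npm1 were lost in 3, 4, 9 and 11 runs.

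Many of the largest changes lay outside the lists. Among the 15 largest rises were Shisal2b, a membrane protein gene, from at most 3.85 TPM to 9.2, 74.3 and 98.7 TPM (4.65, limma adjusted p = 0.00833), and Runx1, a RUNT factor best known from blood, from at most 1.32 TPM to 1.93, 11.1 and 29.9 TPM (3.0, limma adjusted p = 0.00372). Neither had any overlap. Trim44 (3.06) belongs to the same 15, with a call lost in 6 of the 13 runs that left out 1 library. Among the 15 largest falls were Ube2h, an E2 ubiquitin-conjugating enzyme, from 131, 90.3, 185, 88 and 94.1 TPM to 0, 9.13 and 21.7 TPM (-3.95, limma adjusted p = 0.00125), and Pdpn, the membrane mucin podoplanin, from 30.5 to 118 TPM in DMSO to 0, 4.64 and 28 TPM (-3.63, limma adjusted p = 0.0101). Tmem198 stood at 2.4 to 27.9 TPM in DMSO and at 0 in each FGF4 library. Etfbl had the largest negative log2 fold change of the named genes (-5.76, limma adjusted p = 0.0188), with 6.41, 20.9 and 58 TPM in FGF4 replicates 3, 6 and 7 and 0 in the other 5, and a call lost in 3 of those runs.

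**Figure D4:**
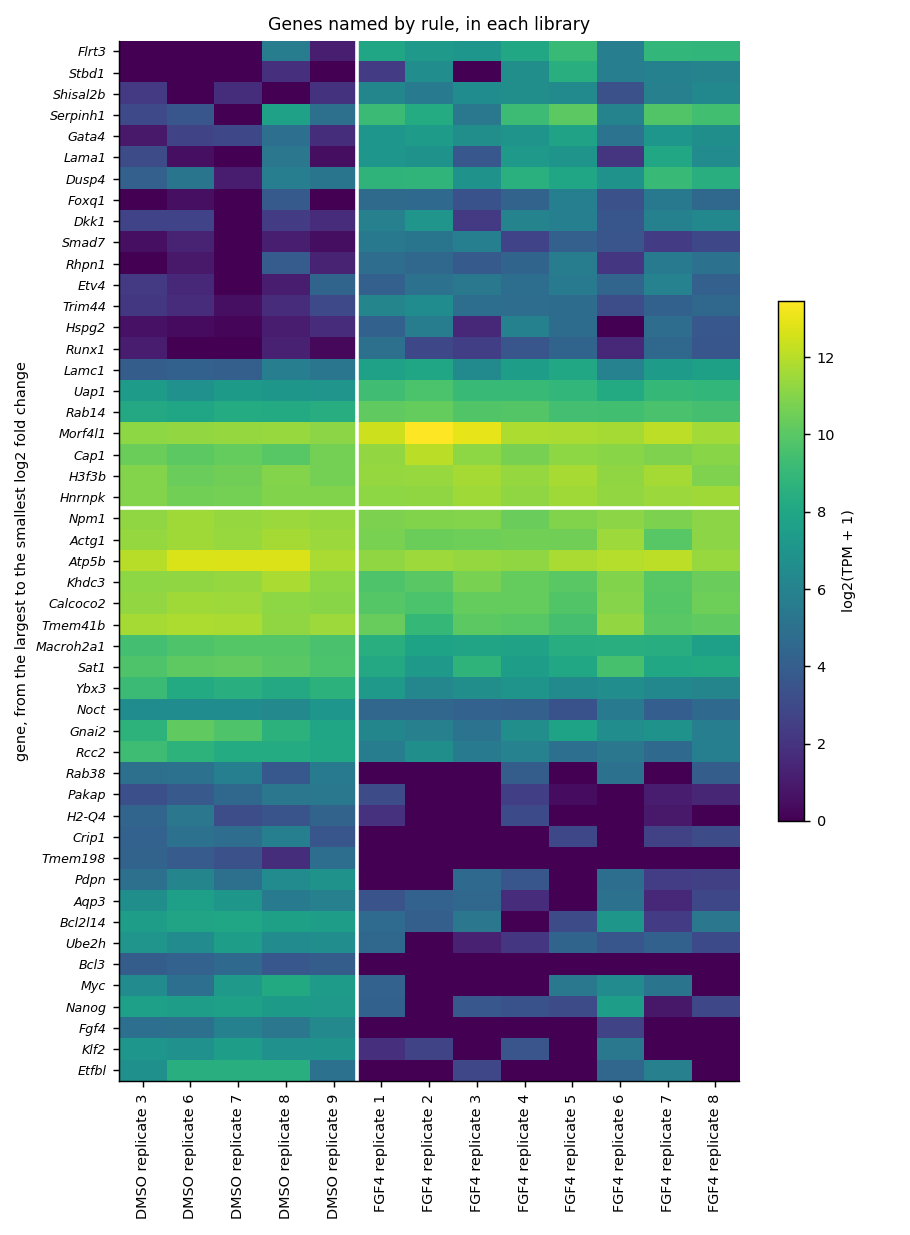
Colour gives log2(TPM + 1) of the genes with the largest or smallest fold changes, the smallest adjusted p or the highest TPM among called genes, in rows ordered by log2 fold change, with 1 column per library. The white lines part DMSO from FGF4 and higher from lower genes, and FGF4 replicate 6 is nearer to DMSO for Nanog, Bcl2l14 and Sat1. The genes were chosen by these values.

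The genes with the smallest adjusted p after Fgf4 changed by less but with little spread. Macroh2a1, a histone H2A variant linked to silent chromatin, stood at 695, 856, 970, 977 and 782 TPM in DMSO and at 193, 283 and 358 TPM with FGF4 (-1.64, SE 0.19, limma adjusted p = 8.79e-06). Uap1, which makes the UDP-N-acetylglucosamine used for glycans, stood at 170, 110, 158, 140 and 129 TPM and at 295, 509 and 798 TPM with FGF4 (1.87, SE 0.27, limma adjusted p = 0.000377). Sat1, the enzyme that starts polyamine breakdown, stood at 786 to 1177 TPM in DMSO and at 151, 272 and 750 TPM with FGF4, the highest in replicate 6 (-1.74, limma adjusted p = 0.000523). Rab14, a GTPase of endosome and Golgi traffic, stood at 248 to 328 TPM and at 660, 829 and 1262 TPM with FGF4 (1.57, limma adjusted p = 0.000613). None of these 4 genes had overlapping groups, and all 4 passed whichever library was left out. Noct, a phosphatase related to deadenylases (-2.25), and Gnai2, an inhibitory G protein subunit (-2.69), belong to the same group of 10 genes.

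The effect of FGF4 was also measured in ICMs that all carried LY, 6 with FGF4 and 7 without it, a comparison that shares no library with FGF4 against DMSO. Of the 294 genes, 278 had the same sign there (94.6%, against 66.9% of all tested genes). 136 of the 294 (46.3%) passed in the same direction, against 5.73% of all tested genes, and 0 passed in the opposite one. In either direction, 6.3% of all tested genes passed there. Both comparisons entered 1 limma fit and so share its estimate of the spread, but not their means. The trophectoderm score was also lower with FGF4 in most of these libraries. LY+FGF4 replicate 3, at 4.93, lay within the range of the LY libraries. The other LY+FGF4 libraries, at 2.83 to 4.35, lay below every LY library. The part of the score in the shared signs and calls was not tested. For Nanog, the log2 fold change was -4.13 with LY (limma adjusted p = 0.00978), for Fgf4 -4.94 (limma adjusted p = 3.24e-07) and for Klf2 -4.44 (limma adjusted p = 0.00345). For Gata4 it was 4.75 (limma adjusted p = 0.000596), for Dusp4 6.61 (limma adjusted p = 3.24e-07) and for Sox17 7.18 (limma adjusted p = 3.24e-07). Fgfr2 gave 4.57 (limma adjusted p = 7.55e-05).

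Some large changes were not past the threshold with LY. Lama1 gave 1.04 (limma adjusted p = 0.609), Lamc1 0.76 (limma adjusted p = 0.269), Hspg2 0.39 (limma adjusted p = 0.807) and Smad7 0.38 (limma adjusted p = 0.822). The difference between the effects did not pass for any of these, with interaction adjusted p values from limma of 0.803, 0.461, 0.696 and 0.627. The interaction passed for 6 genes of all tested (0.0499%), and 2 of them were among the 294. 4 of the 6 LY+FGF4 libraries listed fewer than 9000 genes (7486 to 8807), against 9860 to 10215 with LY alone. Without these 4 and FGF4 replicates 2 and 3 the interaction passed for 28 genes, and without DMSO replicate 3 or 8 for 3. Rcc2, a chromosome condensation protein, stood at 615, 421, 313, 310 and 257 TPM in DMSO and at 23.1, 46.9 and 102 TPM with FGF4, with no overlap (-2.96, limma adjusted p = 0.000517). With LY its log2 fold change was 0.91 (interaction 3.87, limma adjusted p = 0.00483). Ybx3, a cold shock domain RNA-binding protein, stood at 583, 296, 346, 278 and 404 TPM in DMSO and at 67.8, 90.9 and 147 TPM with FGF4 (-1.96, limma adjusted p = 9.48e-05). With LY it gave 0.71 (interaction 2.68, limma adjusted p = 0.000455).

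**Figure D5:**
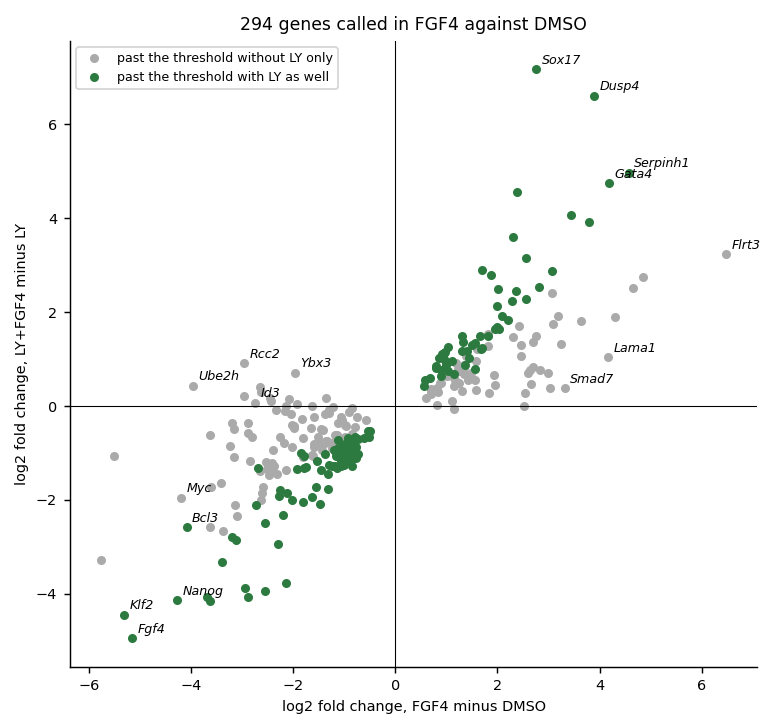
Each point is 1 of the 294 called genes, with the log2 fold change of FGF4 minus DMSO on the horizontal axis and of LY+FGF4 minus LY on the vertical axis; green points passed a limma adjusted p of 0.05 in the second comparison as well (136 genes). Rcc2 and Ybx3 lie below 0 on the first axis and above 0 on the second.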

How the data were processed

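Messenger RNA of 26 single ICMs was sequenced by FLASH-seq, a full-length RNA-seq method. The authors deposited TPM per gene symbol. Reads were trimmed and de-duplicated per the labels, and the submitters' processing notes name STAR, RSEM and mm10. The sources used here do not give versions, annotation, strandedness or how reads were shared between gene copies. TPM keeps no read number. The deposited TPM values listed 0 mitochondrially encoded symbols (prefix mt-), so these genes were not analysed here.

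On the log2(TPM + 1) scale, limma 3.58.1 (R 4.3.3) tested each gene with at least 1 TPM in at least 5 of the 26 libraries. All 4 groups entered 1 fit, with trend and robust set. The two-sided p was adjusted by Benjamini-Hochberg and called under 0.05. The code was tested on simulated data. The limma p-values measure the spread between embryos within groups, pooled over all 26 libraries. Groups differed in that spread. Each library's median correlation with its own group was 0.89 to 0.90 in DMSO, 0.76 to 0.85 with FGF4, 0.83 to 0.86 with LY and 0.71 to 0.77 with LY+FGF4. With only the 13 DMSO and FGF4 libraries in the fit, 360 genes passed, and 239 of the 294 were among them.

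The comparison, its gene lists (41 lists with 818 genes) and the genes named were chosen with earlier results of these data known. The named genes are list members, the 15 largest and 15 smallest log2 fold changes with a mean of at least 5 TPM in the higher group, the 10 smallest adjusted p and the 10 highest TPM among called genes, without predicted, Y-linked or Xist symbols. Some others, such as Kars, Ugdh and Eif4e, were named after their values were seen. Alternatives covered pseudocount, filter, scaling, test, covariates, the replicate number as a block and leaving out each library. Coordinates are GENCODE M21 on GRCm38, matching 53149 of 55254 symbols, and may not be the authors' annotation. Some results are not reported here.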

Additional observations from a re-analysis of the deposited data

Results flagged for a closer look

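Within a group, 1 library lay far from the others for 38 of 239 combinations of group and gene, over 121 named genes, by Dixon's criterion. For normally spread values, the criterion flags about 1 in 20 groups by chance. It was applied here to TPM, where some flags arose because all other libraries of the group were at 0, such as Fgf4 and Prdm14 with FGF4. The 38 of 239 can therefore not be set against that share, and genes of 1 library are not independent. FGF4 replicate 6 held 13 of the 38. In TPM these were Bcl2l14 at 137, Cdx2 at 282, Cldn4 at 292, Dppa3 at 850, Fgf4 at 5.72, Fgfr2 at 21.9, Klf2 at 41.2, Myc at 89.8, Nanog at 176, Noct at 46.6, Npc2 at 518, Perp at 37.6 and Tmem41b at 2499. For all but Fgfr2, which was low there, replicate 6 was the high library of its group. Trophectoderm genes (Cdx2, Cldn4, Perp) and epiblast genes (Nanog, Klf2, Fgf4) were both among them.

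DMSO replicate 8 held 10, with Aqp8 at 143, Egr1 at 81.5, Flrt3 at 51.6, Foxq1 at 12.9, Gata4 at 29.1, Lama1 at 38.7, Rhpn1 at 14.4, Serpinh1 at 207, Sesn2 at 63.5 and Stbd1 at 2.66 TPM. It was the highest DMSO library for each, and Gata4, Foxq1, Lama1, Serpinh1 and Flrt3 were higher with FGF4 as well. DMSO replicate 9 held Etv4 at 19.1 and Noct at 135 TPM.

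FGF4 replicate 2, which listed the fewest genes of the 13 libraries, held Aldh18a1 at 874, Cap1 at 4281, Grb10 at 167, Klf5 at 234 and Ugdh at 1213 TPM. FGF4 replicate 7 held Aqp8 at 512, Etfbl at 58, Prdm14 at 3.09 and Sox7 at 23.6 TPM, FGF4 replicate 5 held Gnai2 at 225 and Stbd1 at 343 TPM, and FGF4 replicate 4 held H2-Q4 at 7.11 and Kars at 688 TPM.

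The FGF4 effect differed between ICMs with and without LY for 2 of the called genes, by limma's test of the difference itself. The difference was 3.87 for Rcc2 and 2.68 for Ybx3 on the log2 scale, the effect with LY minus the effect without it.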

How the results depend on the processing

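Depth is unknown from TPM, low genes are the least certain, and reads of genes with close copies (Npm1, Rpsa and other ribosomal proteins, Actg1, Hnrnpk, H3f3b, Morf4l1) or overlapping genes (Wars) may be shared in ways not given here. All 92 called named genes kept their direction in all 29 alternatives, but 0 of them stayed past the threshold in every one. The exact permutation test called none, and in all the other alternatives only Fgf4, Macroh2a1, Rcc2 and Ybx3 stayed past it. Quantile normalization called 184 genes higher, and limma without trend and robust options called 187 (78 higher, 109 lower). Library weights called 1074 (452 higher, 622 lower), and the exact permutation test, adjusted, 0 (0 higher, 0 lower). Each library's number of listed genes as a covariate gave 181 (91 lower), the trophectoderm score 4 (0 higher, 4 lower), and leaving out the libraries under 9000 genes 464 (207 higher), with 28 interaction calls. Y-linked transcripts as a covariate, chosen after the data were seen, gave 327. Without 1 library at a time, 114 to 432 genes were called, 39 to 174 higher and 75 to 258 lower, and the interaction called 3 to 7. The reversed values were all of genes that did not pass. With genes listed as a covariate these were Egr1 0.18 and Krt8 0.033. With the trophectoderm score they were Cdx2 0.51, Egr1 0.14, Etv5 0.13, Gata6 -0.17, Krt18 1.28, Krt8 0.58, Lamb1 -0.91 and Sox2 0.23. The cause was not tested. Replicate numbers shared by DMSO and FGF4 (3, 6, 7 and 8) gave residual correlations of 0.0042, 0.034, 0.016 and 0.016. These were not compared with libraries of unmatched numbers, so they cannot show whether the numbers pair the samples. With the replicate numbers as a block 41 genes were called (17 higher, 24 lower), all among the 294, and 2 interactions.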

Other observations

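Some gene families were looked at after the values were seen. Of all tested genes, 0.981% rose and 1.46% fell, and the counts of these families are no test against those shares. Of 84 tested cytosolic ribosomal protein genes, 8 fell, 1 rose and 66 were negative (median -0.38, beside -0.10 for all tested genes). Examples were Rplp0 (1355, 1765, 1688, 1768 and 1340 TPM in DMSO, and 886, 1112 and 1263 TPM as lowest, median and highest with FGF4, limma adjusted p = 0.0118) and Rps10 (-1.0, limma adjusted p = 0.00773). The exception was Rpsa, which encodes the laminin-binding ribosomal protein SA (1.32, limma adjusted p = 0.0272). In the libraries with LY, 69 of the 84 were negative with FGF4 (median -0.53), and Rpsa gave 1.36. The median of all tested genes with LY is not given here, for this family or for those below. The family values alone do not separate a shift of all genes there from a shift of a family. LY+FGF4 libraries listed a median of 8650.5 genes, against 10089 with LY alone. Ribosomal proteins have many pseudogenes.

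Of 19 cytosolic aminoacyl-tRNA synthetases, 4 rose and 15 were positive (median 0.40), while in the libraries with LY 10 were negative (median -0.06). The difference was not tested for the family. Kars, not in the amino acid list, had a log2 fold change of 1.15 (limma adjusted p = 0.0472) without LY and -0.06 with it. Leaving out each library in turn took its call 11 times, and its interaction did not pass (limma adjusted p = 0.627). Of 46 genes with Eif2 to Eif5 symbols, 4 rose, 1 fell and 25 were negative (median -0.03). They include regulators of translation initiation factors, such as Eif2ak3 and Eif4ebp1, beside the factors themselves. Eif4e, the cap-binding protein, had the largest rise, from 219, 164, 155, 167 and 299 TPM to 363, 569 and 971 TPM with no overlap (1.56, limma adjusted p = 0.0041). Of 14 ATP synthase subunits 3 fell (median -0.47), of 44 RAB GTPases 3 rose and 1 fell (median -0.22), and of 37 proteasome subunits 1 rose (median -0.03).

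Of 14 genes that make UDP-sugars, 7 were positive and 7 negative (median 0.05, and -0.54 in the libraries with LY). Uap1 and Ugdh rose, 2 of the 14, where 0.981% of all tested genes rose. This family was put together after the values were seen, so its share is no test against that one. Ugdh, which makes the UDP-glucuronate used in heparan sulfate and hyaluronan, went from 114, 70.2, 75.4, 164 and 178 TPM to 139, 432 and 1213 TPM (1.82, limma adjusted p = 0.00511).

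Other called genes chosen by eye were Grb10, an adaptor that restrains growth factor receptors (2.70, limma adjusted p = 0.00375), Glipr2 (2.66, limma adjusted p = 0.00237) and Pramel7, which is linked to the ground state of pluripotency (1.14, limma adjusted p = 0.00372). Grb10 and Pramel7 had groups that did not overlap. Among genes placed on a chromosome, 7 of 118 higher genes (5.93%) and 2 of 173 lower genes (1.16%) were X-linked, against 3.46% of those tested. Xist at 5 TPM or more was seen in 3 of 5 DMSO and 7 of 8 FGF4 libraries, and Y-linked transcripts at that level in 2 of 5 and 2 of 8. FGF4 replicate 1 held both kinds, and the source of that was not tested. The part of embryo sex in these shares was not tested.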
